A study of Mus musculus with 12 samples.

Results

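Th2 and Th1 cultures of DO11.10 T cells were compared as they stood on day 10, before any cells were injected into mice. They were 5 of the study's 12 samples, taken by their labels: 3 Th2 cultures (1 from experiment 1, and a male and a female one from experiment 2) and 2 Th1 cultures (1 of each experiment). All 5 came from CD4+ T cells with the DO11.10 receptor (written DO.11 in the labels), a transgenic T cell receptor for a peptide of ovalbumin (OVA), on the BALB/c background. The study also used Rag-/- donors with the 4get reporter of Il4, and the labels do not say which donor line or how many mice gave a culture, nor the age of the donors. The cells were activated with OVA peptide on irradiated spleen cells and grown with IL-2. Th2 cultures received IL-4 with antibodies to IFNγ and IL-12p40, and Th1 cultures received IFNγ with an antibody to IL-4. All were restimulated once with OVA-pulsed splenocytes before harvest, without further skewing, and RNA of those splenocytes was not measured apart. Transcripts were counted on the NanoString mouse Immunology panel, where each is captured by a color-coded probe. Values of the single Th0 culture of experiment 2 are given at the end. In such bulk RNA, fewer cells of a type and less RNA per cell cannot be told apart.

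CD4+ T cells activated with IL-4 take the Th2 fate, in which the factor GATA3 opens the genes of IL-4, IL-5 and IL-13, the cytokines of allergic and anti-helminth immunity. Activated with IFNγ and IL-12, they take the Th1 fate, in which T-bet (Tbx21) drives IFNγ and the IL-12 receptor chain Il12rb2. Each program is known to restrain the other, and differentiated Th2 cells carry ST2 (Il1rl1), the receptor for the alarmin IL-33.

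Panel counts of the 547 endogenous genes summed to 422557 to 481131 per Th2 culture and to 417917 and 480149 in the Th1 cultures. The 7 housekeeping genes above the limit in every sample of the study and the 6 positive controls were both counted less often in Th2 than in Th1 cultures. The geometric mean of these genes over the summed positive controls was 0.224 to 0.264 in Th2 and 0.250 and 0.256 in Th1 cultures. A gene was called detected where its count exceeded a limit set, in each sample, at 2 SDs over the average of 8 negative controls, and 369 to 403 genes did so in Th2 and 362 and 363 in Th1 cultures. Counts below are scaled counts, divided by a factor from those 7 housekeeping genes. They are listed for Th2 cultures in the order experiment 1, experiment 2 male and experiment 2 female, and for Th1 cultures in the order experiment 1 and experiment 2. Fold changes are log2 values of Th2 over Th1 cultures, and p-values are from edgeR's quasi-likelihood test, adjusted over 400 genes. Apart from the sex given for the Th2 cultures of experiment 2, no label says which mice the cultures came from or whether a culture pooled several, so the p-values measure the spread between these samples only.

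The 4 defining genes followed their labels. Il1rl1 had 3649, 2072 and 3135 scaled counts in Th2 cultures, against 7.76 and 16.9 in Th1 cultures. Every Th2 culture lay far above both Th1 cultures. Its log2 fold change was 7.89 (standard error 0.63, adjusted p = 8.38e-05), and 8.56 without the Th1 culture of experiment 2. Gata3 had 2412, 1934 and 1954 scaled counts in Th2 cultures, against 1062 and 484 in Th1 cultures, so that both groups held its message and did not overlap. On the other side, Il12rb2 had 13.4, 12.4 and 17.9 scaled counts in Th2 cultures, against 320 and 152 in Th1 cultures. It fell by 4.02 on the log2 scale (standard error 0.40, adjusted p = 0.000339), and by 3.38 without the Th1 culture of experiment 1. Tbx21 had 11.5, 15.9 and 19.8 in Th2 cultures, against 62.8 and 85.9 in Th1 cultures. The Th1 cytokine gene Ifng, by contrast, was above the detection limit only in the Th1 culture of experiment 1 (15.7 scaled counts), was at 3.45, 3.18 and 1.49 in Th2 cultures and 3.38 in the other Th1 culture, and was not tested.

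**Figure D1:**
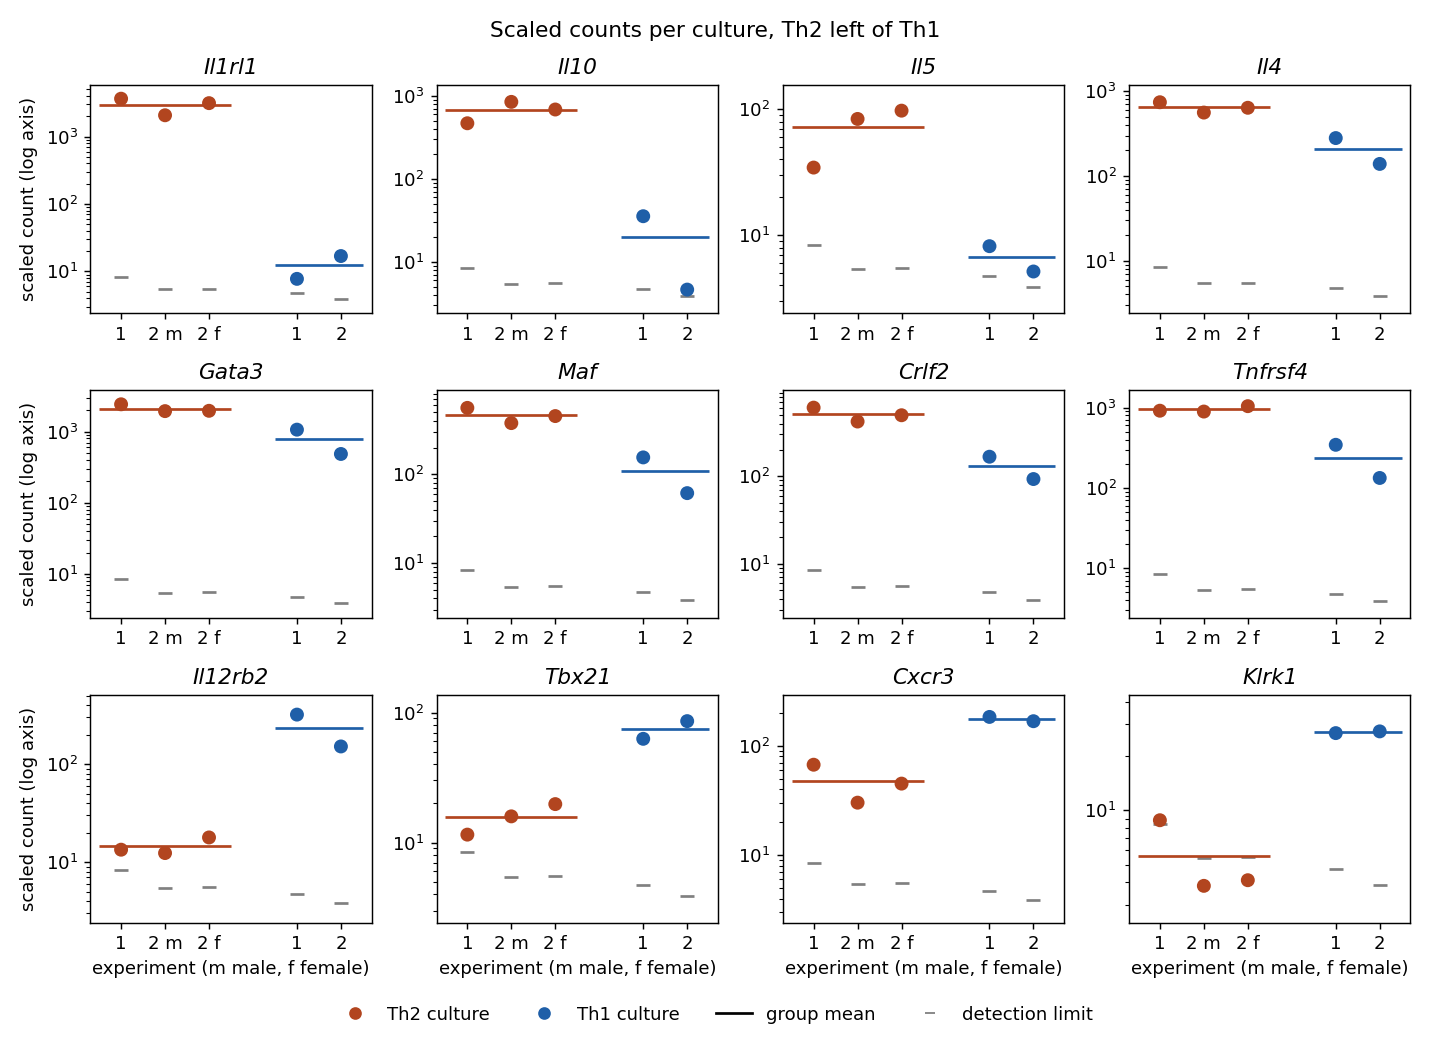
Scaled counts (log axis) of 12 genes in each culture, Th2 left of Th1, with group means as lines and each culture's detection limit as a grey dash. Il1rl1 lies at 2072 to 3649 in Th2 and 7.76 and 16.9 in Th1 cultures, and Il12rb2 at 12.4 to 17.9 in Th2 and 152 and 320 in Th1 cultures.

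As the genes with the largest rise and the largest fall, Il1rl1 and Il12rb2 are shown with their promoters, from 250 bases before to 50 after each RefSeq start (GRCm38.p6). Il1rl1 lies on the plus strand of chromosome 1 and has 2 such starts, with windows at chr1:40429320-40429619 and chr1:40439379-40439678. Il12rb2 lies on the minus strand of chromosome 6, with its window at chr6:67376139-67376438. Capitals mark matches on either strand to AGATAA or TGATAA, the letters that GATA factors bind, or to TTCNNNGAA, which STAT factors bind.
Il1rl1, upstream start: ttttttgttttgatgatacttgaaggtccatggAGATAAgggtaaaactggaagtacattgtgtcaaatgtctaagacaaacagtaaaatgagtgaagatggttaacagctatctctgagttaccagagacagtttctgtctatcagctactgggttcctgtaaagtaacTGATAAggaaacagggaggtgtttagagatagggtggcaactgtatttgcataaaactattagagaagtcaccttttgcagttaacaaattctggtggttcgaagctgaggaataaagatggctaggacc
Il1rl1, downstream start: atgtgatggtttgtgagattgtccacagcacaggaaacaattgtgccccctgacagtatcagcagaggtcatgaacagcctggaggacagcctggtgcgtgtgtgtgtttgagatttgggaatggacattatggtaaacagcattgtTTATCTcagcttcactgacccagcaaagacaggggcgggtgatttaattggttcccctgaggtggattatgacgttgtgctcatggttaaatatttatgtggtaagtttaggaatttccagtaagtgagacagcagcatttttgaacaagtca
Il12rb2: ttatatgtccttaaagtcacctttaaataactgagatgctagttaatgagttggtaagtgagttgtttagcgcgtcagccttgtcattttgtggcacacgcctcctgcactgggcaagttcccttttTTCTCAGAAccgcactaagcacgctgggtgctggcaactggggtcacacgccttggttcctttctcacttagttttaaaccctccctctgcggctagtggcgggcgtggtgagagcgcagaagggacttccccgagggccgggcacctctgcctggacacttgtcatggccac
The upstream window of Il1rl1 held 2 GATA matches and the downstream window 1, while that of Il12rb2 held none and 1 STAT match. Of the 15 genes called higher under every scaling that had a promoter in the RefSeq table, 4 held a GATA match (26.7%), against 1 of 12 called lower (8.33%), 17.3% of the 307 tested genes with a promoter and 21.0% of all 27025 genes with one. The STAT letters were in 0 of the 15 and 1 of the 12, against 13% of the tested genes and 9.55% of all genes. The T-box letters GGTGTGA were in 0 of the 15 and 0 of the 12, against 4.56% and 4.60%. The STAT6 letters, TTC and GAA with any 4 bases between, were in 0 and 2 of them, against 11.7% and 8.01%. A match is a description of letters and not of binding.

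With the housekeeping scaling 109 genes were higher in Th2 cultures (27.2% of those tested) and 18 were lower (4.5%), and the median over every gene tested was 0.58 on the log2 scale. The split moved with the reference. With the positive controls 92 genes were higher (23%) and 17 lower (4.25%), at a median of 0.54, whereas TMM factors gave 34 higher (8.5%) and 31 lower (7.75%), DESeq2's size factors 32 each (8%), and total counts 23 higher (5.75%) and 53 lower (13.2%). The median was -0.0048 with TMM factors, -0.025 with DESeq2's size factors and -0.24 with total counts. Called in the same direction under all 5 scalings, with groups that did not overlap and the same sign in both experiments, were 23 genes higher (5.75%) and 17 lower (4.25%) in Th2 cultures. Of the higher genes, Ccl2, Ccl24, Hc, Il17rb, S100a8 and Tgfbi exceeded the limit in no Th1 culture. Of the lower genes, Il18, Klrc1 and Klrd1 exceeded it in no Th2 culture. All of those were tested only through the group where they were high. The sizes of these sets moved with the cultures kept. Under every scaling 19 genes were higher and 14 lower without the Th2 culture of experiment 1, and 21 were higher and 10 lower without the Th1 culture of experiment 1. By contrast, 1 gene was higher and 3 were lower without the male Th2 culture, 0 were higher and 1 was lower without the female Th2 culture, and 3 were higher and 6 lower without the Th1 culture of experiment 2. Non-overlapping groups alone were common, with 216 tested genes wholly higher (54%) and 36 wholly lower (9%) in Th2 cultures. With the housekeeping scaling and each of the 5 cultures left out in turn, the call of 30 genes that were higher (7.5%) and 6 that were lower (1.5%) held every time, among them 20 of the 23 and 6 of the 17 genes called under every scaling. Of the 109 higher genes, 64 lost their call without the Th1 culture of experiment 2 and 57 without the female Th2 culture, and the counts of higher and lower genes were then 48 and 10, and 52 and 11. All 127 called genes had the same sign in both experiments, as did 330 of the 400 tested.

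**Figure D2:**
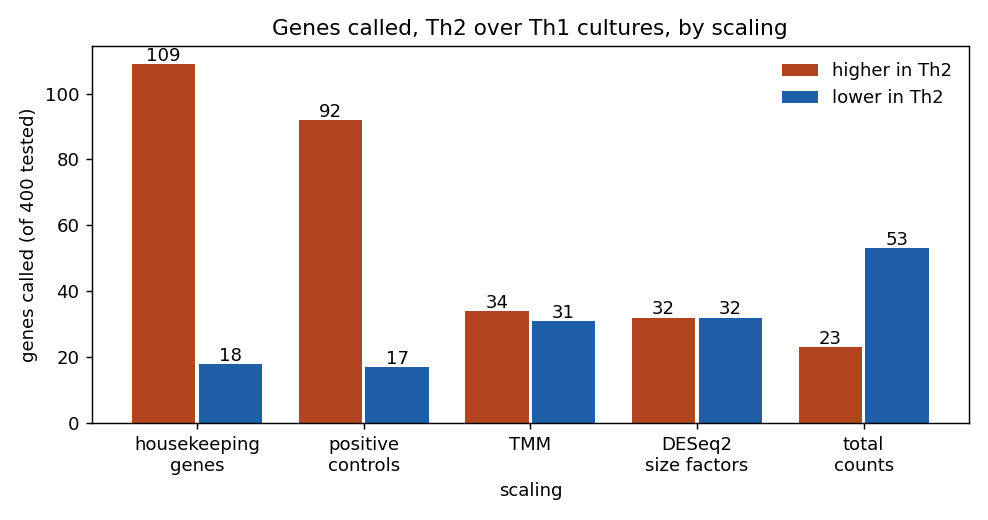
Number of genes called in Th2 over Th1 cultures under 5 scalings, with genes higher in Th2 cultures in red and lower in blue. The count of higher genes is 109 and 92 with the housekeeping genes and positive controls, and 34, 32 and 23 with the 3 scalings that use all endogenous genes.

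**Figure D3:**
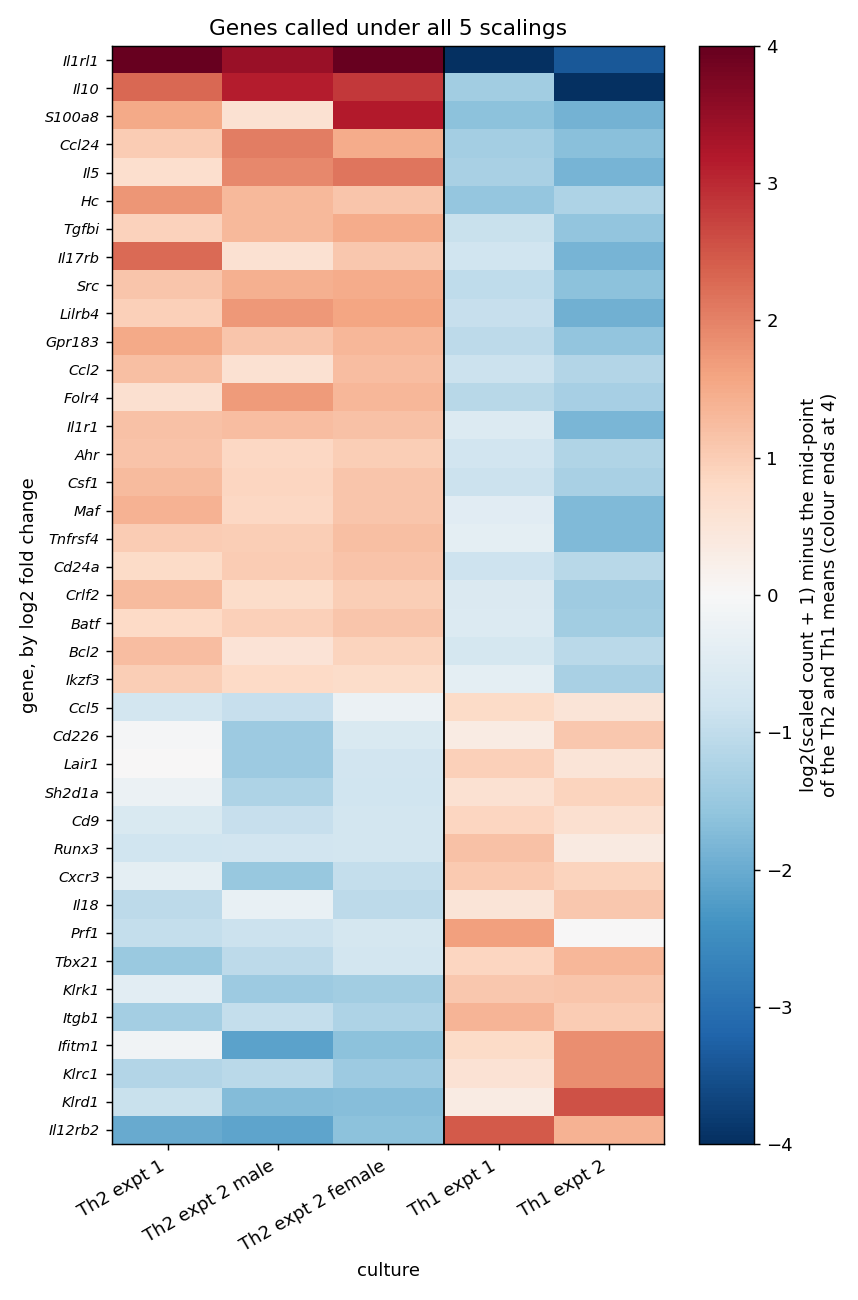
The reported genes called under all 5 scalings, 23 higher and 16 lower in Th2 cultures, with 1 column per culture. Colour is log2(scaled count + 1) minus the mid-point of the Th2 and Th1 means, so that red is high and blue is low within each gene, and no row has an overlap between the 3 Th2 and the 2 Th1 columns.

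Cytokine genes of the Th2 program were higher in Th2 cultures: of 9 tested, 7 passed as higher and none as lower, beside 27.2% and 4.5% of all tested genes, at a median of 1.94 on the log2 scale. With TMM factors 4 were higher and with total counts 3. Il3, Il9 and Ccl24 were among the 7 but entered the test through Th2 cultures alone. Their calls are no evidence apart from the bounds given below. Il10, which encodes an anti-inflammatory cytokine that Th2 cells also secrete, had 468, 847 and 685 scaled counts in Th2 cultures, against 35.5 and 4.63 in Th1 cultures. The Th1 cultures differed more from each other than the Th2 cultures did, and the groups were far apart. Its log2 fold change was 5.06 (standard error 0.80, adjusted p = 0.00300), from 4.23 without the Th1 culture of experiment 2 to 7.16 without that of experiment 1. Il5, the growth factor of eosinophils, had 34.5, 83.9 and 97.6 in Th2 cultures, against 8.21 and 5.17 in Th1 cultures (3.43, standard error 0.56, adjusted p = 0.00344). Il4, the defining Th2 cytokine gene, had 741, 560 and 638 scaled counts in Th2 cultures, against 280 and 139 in Th1 cultures, so that its message was well above the limit in both. It rose by 1.63 on the log2 scale (standard error 0.38, adjusted p = 0.0147), by 2.22 without the Th1 culture of experiment 1, and by 0.81 with total counts, where it did not pass (adjusted p = 0.0501). Il13 passed with the housekeeping genes (1.65, adjusted p = 0.00975) and the positive controls, and not under the other 3 scalings. In neither Th1 culture did Il3, Il9 or Ccl24 exceed the detection limit, and against that limit Th2 cultures were at least 3.16-fold higher for Il3, 1.55-fold for Il9 and 4.70-fold for Ccl24. The Il3 call was lost without the Th1 culture of experiment 2, and that of Il9 without either Th1 culture, while Il9 was not tested without the experiment 1 or the female Th2 culture. Neither Il3 nor Il9 passed with TMM factors, DESeq2's size factors or total counts. Csf2, the GM-CSF gene that both subsets can make, had 29.5, 11.4 and 13.4 in Th2 cultures, against 24.4 and 19.1 in Th1 cultures, and did not pass.

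Other secreted factors also differed. Csf1, the macrophage growth factor M-CSF, had 331, 250 and 295 scaled counts in Th2 cultures, against 74.3 and 55.2 in Th1 cultures. It was called under every scaling, with log2 ratios of 2.14 in experiment 1 and 2.28 in experiment 2 (2.17, standard error 0.33, adjusted p = 0.00300). Tnfsf11, the osteoclast factor RANKL, had 57.9, 21.6 and 29.4 in Th2 cultures, against 4.44 and 5.88 in Th1 cultures, the former below the limit. Tnfsf11 rose by 2.80 (standard error 0.55, adjusted p = 0.00690), and did not pass with total counts (1.84, adjusted p = 0.0501). Lif, a cytokine of the IL-6 family, had 587, 670 and 666 in Th2 cultures, against 238 and 44.4 in Th1 cultures. It rose by 2.19 (standard error 0.60, adjusted p = 0.0235), which was 1.43 without the Th1 culture of experiment 2, and 3.85 without that of experiment 1, and it did not pass without the Th2 culture of experiment 1 or with TMM factors, DESeq2's size factors or total counts. Tgfbi, a matrix protein induced by TGF-β, lay below the limit in both Th1 cultures and was at least 2.85-fold higher in Th2 cultures. Its fitted log2 fold change was 3.09, and 3.73 without the Th1 culture of experiment 1. Of 11 Th1 and inflammatory cytokine genes tested, 3 were higher and Il18 was lower with the housekeeping scaling, beside 27.2% and 4.5% of all tested genes. The 3 were Lif, Tnfsf11 and Il6, the last called with this scaling only, and their share was near that of the panel. TMM factors gave 1 higher and 3 lower and total counts 0 and 3. Il18 encodes a cytokine that acts with IL-12, and was below the limit in all 3 Th2 cultures (1.53, 3.18 and 1.49 scaled counts) and above it in the Th1 cultures (6.43 and 9.98), at least 1.27-fold lower. Against the Th1 culture of experiment 2 alone the bound was 1.55-fold. Against that of experiment 1 alone it was 0.997-fold, which sets no fall. Il18 was near the limit throughout. It did not pass without the experiment 1 or the female Th2 culture, and was not tested without either Th1 culture.

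Of 8 receptor genes tested for epithelial alarmins, IL-1 and IL-17, 5 were higher and none lower, beside 27.2% and 4.5% of all tested genes. TMM factors gave 5 and 1, beside 8.5% and 7.75%, and 4 genes were higher under every scaling, beside 5.75%. These counts include Il1rl1, a defining gene, and Il17rb, which entered the test through Th2 cultures alone. The calls of those genes are no separate evidence on this group. Crlf2, the receptor chain for thymic stromal lymphopoietin, had 608, 422 and 498 scaled counts in Th2 cultures, against 167 and 93.0 in Th1 cultures (1.97, standard error 0.37, adjusted p = 0.00684). Il17rb, a chain of the IL-25 receptor, had 44.5, 13.4 and 19.0 in Th2 cultures and exceeded the limit in neither Th1 culture, so that it was at least 5.95-fold higher, or 3.76-fold without the Th2 culture of experiment 1. Its fitted log2 fold change of 3.09 was 2.44 without the Th2 culture of experiment 1 and 3.96 without the Th1 culture of experiment 1, and it did not pass without the Th1 culture of experiment 2 (2.51, adjusted p = 0.0781). With Il1rl1, at least 1 receptor chain for each of these 3 alarmins was higher in Th2 cultures. The tested partner chains of Il1rl1 and Il17rb did not pass. Il7r, the partner chain of Crlf2, was higher with the housekeeping scaling (1.03, adjusted p = 0.0416). Its call held under 2 of the 5 scalings and was lost without any 1 of the Th2 cultures. Il1r1, the signaling receptor for IL-1, had 28.4, 29.6 and 28.7 in Th2 cultures, against 7.98 and 2.67 in Th1 cultures, the latter below the limit. Its log2 fold change was 2.45 (standard error 0.53, adjusted p = 0.00975), with 3.42 and 1.85 without the Th1 culture of experiment 1 or 2. Its decoy Il1r2 had 270, 572 and 357 in Th2 cultures, against 99.1 and 43.6 in Th1 cultures. Il1r2 rose by 2.49 (standard error 0.48, adjusted p = 0.00684), by 3.19 without the Th1 culture of experiment 1, and did not pass with total counts (1.74, adjusted p = 0.0517).

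Of the receptors of the IL-2 and IL-4 family, 4 of 10 tested genes were higher, beside 27.2% of all tested genes. TMM factors gave 1 higher, and total counts 1 higher and 1 lower. Il4ra, the IL-4 receptor chain, had 4157, 3881 and 4382 scaled counts in Th2 cultures, against 2076 and 481 in Th1 cultures. The groups did not overlap, but the Th1 cultures were far apart, and the log2 fold change of 1.70 did not pass (standard error 0.59, adjusted p = 0.0515), although it did with experiment as a block (adjusted p = 0.0335) and without the Th1 culture of experiment 1 (3.10, adjusted p = 0.00218). Il2ra, the high-affinity chain of the IL-2 receptor, had 7480, 11122 and 10686 in Th2 cultures, against 5743 and 1411 in Th1 cultures (1.45, adjusted p = 0.103, and 2.79 with an adjusted p of 0.00398 without the Th1 culture of experiment 1). All 4 tested receptor chains for IL-6, LIF and IL-10 were higher with the housekeeping genes and the positive controls, beside 27.2% and 23% of all tested genes. With TMM factors 2 of them were higher, beside 8.5%, and with total counts none, beside 5.75%. Il10ra, the binding chain of the IL-10 receptor, had 126, 101 and 127 scaled counts in Th2 cultures, against 42.4 and 39.9 in Th1 cultures (1.52, standard error 0.32, adjusted p = 0.00928, and 0.63 with total counts, adjusted p = 0.104). Of 9 receptors for IL-12, IL-18 and the interferons, Il12rb2 was lower and 3 were higher, beside 4.5% and 27.2% of all tested genes. The 3 were led by Il27ra (1.59, adjusted p = 0.0165), which did not pass with DESeq2's size factors, with total counts or without the Th1 culture of experiment 2.

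Transcription factors of the T helper lineages moved both ways. Of 32 tested, 8 were higher and 3 lower, beside 27.2% and 4.5% of all tested genes, so the share of higher genes was near that of the panel. Under every scaling 4 were higher and 2 lower, beside 5.75% and 4.25% of all tested genes. Maf, which activates Il4 and Il10, had 561, 378 and 454 scaled counts in Th2 cultures, against 155 and 61.5 in Th1 cultures (2.10, standard error 0.44, adjusted p = 0.00928, and 2.92 without the Th1 culture of experiment 1). Batf, an AP-1 family factor that acts with IRF4, had 1548, 1732 and 1906 in Th2 cultures, against 611 and 341 in Th1 cultures, a rise of 1.86 (standard error 0.39, adjusted p = 0.00928). Ikzf3, which encodes Aiolos, had 508, 451 and 433 in Th2 cultures, against 198 and 104 in Th1 cultures (1.62, standard error 0.36, adjusted p = 0.0112). Ahr, a ligand-activated receptor used by several T cell subsets, had 21.1, 16.9 and 19.0 in Th2 cultures, against 4.88 and 3.38 in Th1 cultures, the latter below the limit. Its log2 fold change was 2.20 (standard error 0.43, adjusted p = 0.00690), and it just missed the threshold without the Th1 culture of experiment 2 (adjusted p = 0.0504). Gata3 itself passed with the housekeeping genes (1.44, standard error 0.43, adjusted p = 0.0326) and the positive controls (1.40), but not with TMM factors (0.87), DESeq2's size factors or total counts (0.64, adjusted p = 0.107). It was 2.12 without the Th1 culture of experiment 1, and did not pass without that of experiment 2, the Th2 culture of experiment 1 or the female Th2 culture. Pparg, a nuclear receptor that Th2 cells are known to use, and Runx1 were higher with the housekeeping genes, by 1.24 and 1.84, and not with total counts (0.37 and 0.93). Pparg also did not pass without the female Th2 culture or the Th1 culture of experiment 2.

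The factors that were lower were Tbx21, Runx3 and Batf3. Tbx21 fell by 2.24 on the log2 scale (standard error 0.39, adjusted p = 0.00489), with log2 ratios of -2.35 in experiment 1 and -2.21 in experiment 2. Runx3, which works with T-bet in Th1 cells, had 33.4, 34.0 and 35.0 scaled counts in Th2 cultures, against 132 and 75.4 in Th1 cultures. The Th2 values lay close together, and the fold change was -1.60 (standard error 0.36, adjusted p = 0.0112), or -1.14 and not past the threshold without the Th1 culture of experiment 1 (adjusted p = 0.0505). Batf3 had 2.68, 19.7 and 9.69 in Th2 cultures, the first below its limit, against 32.4 and 51.1 in Th1 cultures, and it passed with the housekeeping genes only (-1.95, adjusted p = 0.0416). Its call was lost with any culture other than the male Th2 culture left out, and without that culture its value was -2.75. Foxp3, the factor of regulatory T cells, was at or below the limit in all 5 cultures.

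Downstream of these receptors, the Janus kinases and STATs gave no call with the housekeeping scaling. In this pathway 3 of 16 tested genes were higher, beside 27.2% of all tested genes, so the share was below that of the panel. All 3 were inhibitors of cytokine signaling, but Ptpn2 and Ptpn6, phosphatase genes that also restrain it, did not pass with this scaling. Socs1 had 1783, 1755 and 1758 scaled counts in Th2 cultures, against 809 and 394 in Th1 cultures. Its 3 Th2 values lay close together, and it rose by 1.55 (standard error 0.40, adjusted p = 0.0189). Socs3 had 301, 164 and 234 in Th2 cultures, against 115 and 24.0 in Th1 cultures (1.74, adjusted p = 0.0461), and Cish had 309, 222 and 244 in Th2 cultures, against 141 and 37.9 in Th1 cultures (1.53, adjusted p = 0.0431). None of the 3 passed with TMM factors or total counts, and Socs3 and Cish did not with the positive controls either. Without the Th1 culture of experiment 1 the values were 2.16 for Socs1, 3.27 for Socs3 and 2.77 for Cish. Without that of experiment 2, Socs3 (1.01) and Cish (0.87) did not pass. Without the female Th2 culture or the Th2 culture of experiment 1, none of the 3 passed.

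Of 21 tested genes of T cell receptor signaling, 1 was higher and 1 lower, beside 27.2% and 4.5% of all tested genes. Sh2d1a, the adaptor SAP of the SLAM receptors, had 291, 146 and 199 scaled counts in Th2 cultures, against 521 and 644 in Th1 cultures, and was lower under every scaling (-1.46, standard error 0.35, adjusted p = 0.0152). It missed the threshold without the female Th2 culture or the Th1 culture of experiment 2, at adjusted p of 0.0587 and 0.0537 in edgeR's test. Nfatc2, a calcium-dependent factor, was higher with the housekeeping genes (1.30, adjusted p = 0.0173) and not with total counts (0.47, adjusted p = 0.117), nor without those same cultures. The kinase gene Src, outside this list, had 24.5, 30.8 and 32.4 in Th2 cultures, against 4.88 and 2.85 in Th1 cultures, the latter below the limit (2.92, standard error 0.47, adjusted p = 0.00324). Of the T cell surface molecules, 1 of 22 was higher (Cd27) and 1 lower (Cd9), while 20 did not pass, among them Cd3d, Cd3e, Cd247 and Cd4. With TMM factors 0 passed upward and 3 downward, and with total counts 0 and 7. Cd3d and Cd3e passed as higher with experiment as a block (adjusted p = 0.0271 and 0.0334), and the Cd27 call was lost with TMM factors and without the female Th2 culture. Cd4 had 519, 319 and 400 scaled counts in Th2 cultures, against 399 and 236 in Th1 cultures.

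Costimulatory and inhibitory receptors did not share a direction: of 19 tested, 3 were higher and 2 lower, beside 27.2% and 4.5% of all tested genes. TMM factors gave 1 higher and 3 lower, beside 8.5% and 7.75%. Total counts gave 1 and 5, beside 5.75% and 13.2%. Tnfrsf4 and Folr4, described next, were counted in other lists. Tnfrsf4, which encodes OX40, a receptor known to sustain Th2 cells, had 914, 892 and 1041 scaled counts in Th2 cultures, against 344 and 133 in Th1 cultures (1.99, standard error 0.44, adjusted p = 0.0109, and 2.83 without the Th1 culture of experiment 1). Lilrb4, an inhibitory receptor of the immunoglobulin family, had 485, 829 and 739 in Th2 cultures, against 132 and 64.7 in Th1 cultures (2.80, standard error 0.44, adjusted p = 0.00300, and 3.40 without the Th1 culture of experiment 1). Folr4, which encodes folate receptor 4 of regulatory T cells, had 136, 283 and 218 in Th2 cultures, against 39.7 and 33.5 in Th1 cultures, a rise of 2.54 (standard error 0.40, adjusted p = 0.00300). Lower in Th2 cultures were Cd226, an activating receptor, with 63.7, 23.5 and 42.5 in Th2 cultures, against 81.8 and 139 in Th1 cultures, and Lair1, an inhibitory collagen receptor, with 18.8, 6.04 and 10.4 in Th2 cultures, against 36.6 and 26.5 in Th1 cultures. Their fold changes were -1.36 (adjusted p = 0.0425) and -1.43 (adjusted p = 0.0495). The Cd226 call was lost with experiment as a block (adjusted p = 0.0630) and without the male, the female or the experiment 2 Th1 culture, and that of Lair1 without any culture but the Th2 culture of experiment 1. Of the TNF superfamily, 6 of 21 were higher and none lower, beside 27.2% and 4.5% of all tested genes, so the share of higher genes was near that of the panel. With TMM factors 2 members passed upward and 3 downward, beside 8.5% and 7.75% of all tested genes. The survival gene Bcl2 had 288, 178 and 225 in Th2 cultures, against 74.3 and 57.9 in Th1 cultures (1.80, standard error 0.35, adjusted p = 0.00684), while 16 of 18 tested genes of apoptosis and survival did not pass.

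Cytotoxic genes went both ways. Of 13 tested cytotoxic and natural killer receptor genes, 2 were higher and 4 lower, beside 27.2% and 4.5% of all tested genes. TMM factors gave 0 higher and 4 lower, and total counts 0 and 5. The C-type lectin receptors of natural killer cells can also be carried by activated Th1 and CD8 cells. Of these, Klrk1, Klrd1 and Klrc1 were lower in Th2 cultures, while Klrc2 and Klra8 did not pass with the housekeeping scaling. Klrk1, which encodes NKG2D, had 8.82, 3.82 and 4.10 scaled counts in Th2 cultures, of which 1 was above its limit, against 26.8 and 27.4 in Th1 cultures (-2.29, standard error 0.46, adjusted p = 0.00756). Klrd1 and Klrc1, which encode the CD94 and NKG2A chains, were at or below the limit in all 3 Th2 cultures. Klrd1 had 13.8 and 67.9 and Klrc1 15.3 and 38.7 in the Th1 cultures, at least 6.32-fold and 4.18-fold lower in Th2 cultures, and neither was tested without either Th1 culture. Against the Th1 culture of experiment 1 alone the bounds were 2.13-fold for Klrd1 and 2.37-fold for Klrc1, and for Klrd1 10.5-fold against that of experiment 2. Prf1, the pore-forming perforin, had 9.20, 9.86 and 11.2 in Th2 cultures, against 60.3 and 19.1 in Th1 cultures. It fell by 1.97 (standard error 0.51, adjusted p = 0.0185), by 2.58 without the Th1 culture of experiment 2, by 0.92 without that of experiment 1 and by 1.91 without the Th2 culture of experiment 1, the last 2 not past the threshold. The protease genes did not follow. Gzma, which encodes granzyme A, had 22528, 11748 and 12846 scaled counts in Th2 cultures, against 4489 and 4554 in Th1 cultures, and rose by 1.80 (standard error 0.56, adjusted p = 0.0377). With TMM factors it was at 1.12 and with total counts at 0.87, neither past the threshold, and it did not pass without the male or the female Th2 culture. Gzmb had 3969, 2213 and 3055 in Th2 cultures, against 2863 and 1202 in Th1 cultures, which overlapped and did not pass.

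For migration and adhesion, Gpr183, the receptor for oxysterols that guides cells within lymphoid tissue, had 104, 78.5 and 91.3 scaled counts in Th2 cultures, against 16.6 and 11.2 in Th1 cultures (2.71, standard error 0.39, adjusted p = 0.00279). The experiments gave log2 ratios of 2.58 (experiment 1) and 2.81 (experiment 2). Ccr2, a receptor for CCL2, had 1469, 529 and 655 in Th2 cultures, against 186 and 174 in Th1 cultures (2.29, standard error 0.48, adjusted p = 0.00928, and 1.36 with total counts, adjusted p = 0.0629). Its ligand gene Ccl2 was above the limit in each Th2 culture (10.7, 6.68 and 10.8) and in neither Th1 culture, at least 2.19-fold higher. Cxcr3 had 67.1, 30.2 and 45.1 in Th2 cultures, against 183 and 168 in Th1 cultures, and its call held under every scaling and with each culture left out. Ccl5, a chemokine of effector T cells, had 23.4, 20.0 and 33.2 in Th2 cultures, against 66.8 and 55.9 in Th1 cultures (-1.26, adjusted p = 0.0334), a call lost with any 1 culture left out. Itgb1, the β1 integrin chain, had 151, 199 and 165 in Th2 cultures, against 998 and 797 in Th1 cultures (-2.39, standard error 0.31, adjusted p = 0.00194). Cd9, a membrane protein that pairs with integrins, had 19.9, 15.9 and 18.3 in Th2 cultures, against 56.6 and 49.3 in Th1 cultures (-1.55, standard error 0.37, adjusted p = 0.0152), and missed the threshold without the female Th2 culture (adjusted p = 0.0692). Of 18 receptors for chemoattractants tested, 6 were higher and 1 lower, beside 27.2% and 4.5% of all tested genes. With total counts 1 was higher and 5 were lower, beside 5.75% and 13.2% of all tested genes.

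**Figure D4:**
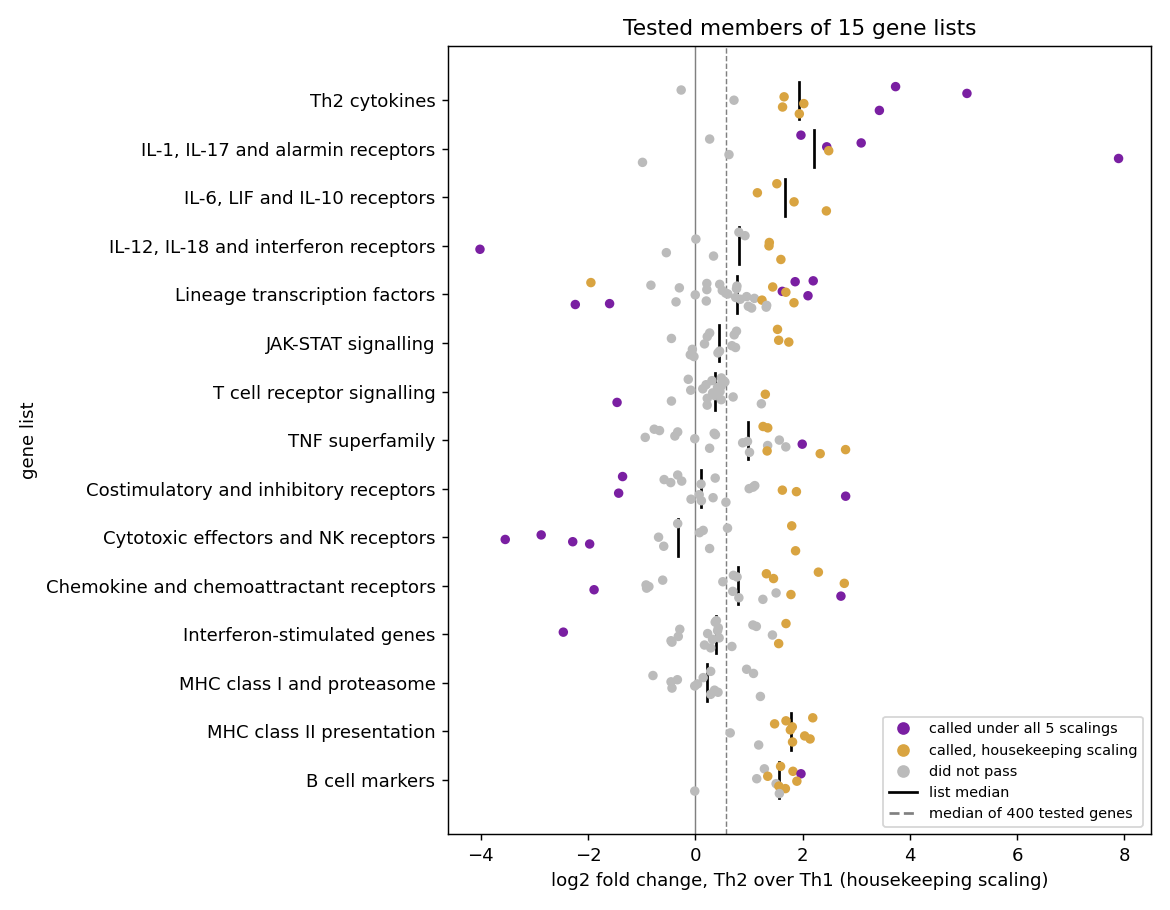
Log2 fold change (Th2 over Th1, housekeeping scaling) of the tested members of 15 gene lists, each point a gene reported here, with the median of a list's points as a black bar and the median of all 400 tested genes, 0.58, as a dashed line. Alarmin receptors and Th2 cytokines hold genes called under all 5 scalings, whereas 8 of the 10 MHC class II genes are called with the housekeeping scaling and 0 under all 5.

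In several groups the share of called genes was near or below that of all tested genes, 27.2% higher and 4.5% lower. Of 20 interferon-stimulated genes tested, 2 were higher and 1 lower, while the MHC class I and proteasome genes and the interferon regulatory factors gave no call with the housekeeping scaling in edgeR's test. Of 14 MHC class I and proteasome genes, 0 passed there, 1 was lower with TMM factors and 3 with total counts, 2 had an unadjusted p under 0.05, and 3 passed with DESeq2 and 1 with limma. Of 11 genes of interferon regulatory factors and interferon induction, 0 passed edgeR's test with this scaling, TMM factors or total counts, 1 had an unadjusted p under 0.05 with the housekeeping scaling, and 0 passed with DESeq2 or limma. Ifitm1 was the interferon-stimulated gene that was lower, with 214, 52.1 and 74.9 scaled counts in Th2 cultures, against 398 and 852 in Th1 cultures (-2.46, standard error 0.57, adjusted p = 0.0130). It was at -3.30 without the Th2 culture of experiment 1, and at -1.81 and not past the threshold without the Th1 culture of experiment 2 (adjusted p = 0.0912). Of 25 NF-κB genes 3 were higher, and of 11 Toll-like receptor genes 3 were higher.

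Markers of other cells moved with the Th2 cultures for B cells and antigen presentation. Of 13 tested B cell markers 8 were higher and none lower, beside 27.2% and 4.5% of all tested genes, and of 10 MHC class II genes 8 were higher and none lower. Summed scaled counts of the B cell list were 648 to 1205 in Th2 and 221 to 444 in Th1 cultures. Those of the class II list were 2112 to 5697 in Th2 and 679 to 1590 in Th1 cultures. With TMM factors or total counts, 1 of the B cell markers, Cd24a, passed as higher in edgeR's test, and 0 of the class II genes did, of which 1 and 0 had an unadjusted p under 0.05. Cd79b, a chain of the B cell receptor, had 120, 387 and 319 scaled counts in Th2 cultures, against 30.6 and 117 in Th1 cultures, so that the experiment 1 Th2 culture and the experiment 2 Th1 culture were nearly level (1.89, adjusted p = 0.0443). Cd74, the class II invariant chain, had 806, 2278 and 2149 in Th2 cultures, against 209 and 556 in Th1 cultures (2.19, adjusted p = 0.0198). Both were higher in experiment 2 than in experiment 1 in either kind of culture. Cd74 was at 1.65 and not past the threshold without the Th1 culture of experiment 1, and at 3.06 without that of experiment 2, while Cd79b was at 3.17 without the Th1 culture of experiment 2, at 1.23 and not past the threshold without that of experiment 1, and lost its call without the male or the female Th2 culture. Of 22 myeloid markers on the panel, 16 were at or below the limit in all 5 cultures, Cd14 and Csf1r among them. Of 5 tested, 2 were higher, and 0 with TMM factors or total counts, with summed scaled counts of 209.8 to 289 in Th2 and 102 to 120 in Th1 cultures. Of 8 dendritic cell markers tested, 3 were higher and 1 lower, of 3 mast cell and basophil markers 2 were higher, Il1rl1 among them, and of 5 natural killer cell markers 1 was. With TMM factors these gave 0, 1 and 0 higher and none lower. Of 4 CD8 T cell markers tested, 1 was lower, and 3 with total counts. S100a8 and S100a9, which neutrophils express most, had 33.7, 17.8 and 109 and 17.6, 14.3 and 52.9 scaled counts in Th2 cultures, with both Th1 cultures at or below the limit, and the lower bound of the rise was 12.4-fold for S100a8 and 6.57-fold for S100a9, or 5.99-fold and 3.71-fold without the female Th2 culture. Neither passed without the Th1 culture of experiment 2 (adjusted p = 0.0519 and 0.0537), and their fitted values were 3.30 and 2.78 without the female Th2 culture, against 4.35 and 3.60 with all 5. S100a8 and S100a9 were 2 of 4 neutrophil markers tested, and the others, Cxcr1 and Cxcr2, did not pass with the housekeeping scaling. With total counts 1 of the 4 was higher and 2 were lower. The neutrophil markers Camp and Ltf were at or below the limit in all 5 cultures, and Csf3r was above it only in the female Th2 culture (7.45 scaled counts). Of the complement genes, 7 of 13 tested were higher with the housekeeping genes, beside 27.2% of all tested genes, and 1 with TMM factors, beside 8.5%. That gene, Hc, which encodes complement C5, had 24.5, 17.5 and 14.9 scaled counts in Th2 cultures, against 1.55 and 2.14, both below the limit, in Th1 cultures. Its rise in Th2 cultures was at least 4.41-fold. Hc entered the test through the Th2 cultures alone, so its call is no evidence apart from that bound. The part of other cells in these results was not tested.

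Among the cultures, the Th2 samples of experiment 2 were closest to each other, with a median absolute log2 difference of 0.196 between female and male over the 324 genes detected in all 5 cultures and 2 genes over 2-fold apart. The Th2 culture of experiment 1 differed from the female and the male culture by 0.384 and 0.468, and the Th1 cultures of the experiments differed by 0.505, with 69 genes over 2-fold apart. In the Th1 pair, Il10, Lif, Socs3, Il4ra, Il2ra and Cish were higher in experiment 1, by 2.94, 2.42, 2.26, 2.11, 2.03 and 1.89 on the log2 scale. Cd79b was lower in experiment 1, with a log2 difference of -1.94. In the Th2 cultures Irf7, an interferon-induced factor, was the gene furthest above in experiment 1, by 2.40 over the mean of experiment 2, with 66.7, 11.4 and 13.8 scaled counts in Th2 cultures, against 13.3 and 9.26 in Th1 cultures. The 70 tested genes that had opposite signs in the experiments included Il2rb, the signaling chain of the IL-2 and IL-15 receptors, with log2 ratios of -1.42 in experiment 1 and 0.19 in experiment 2.

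**Figure D5:**
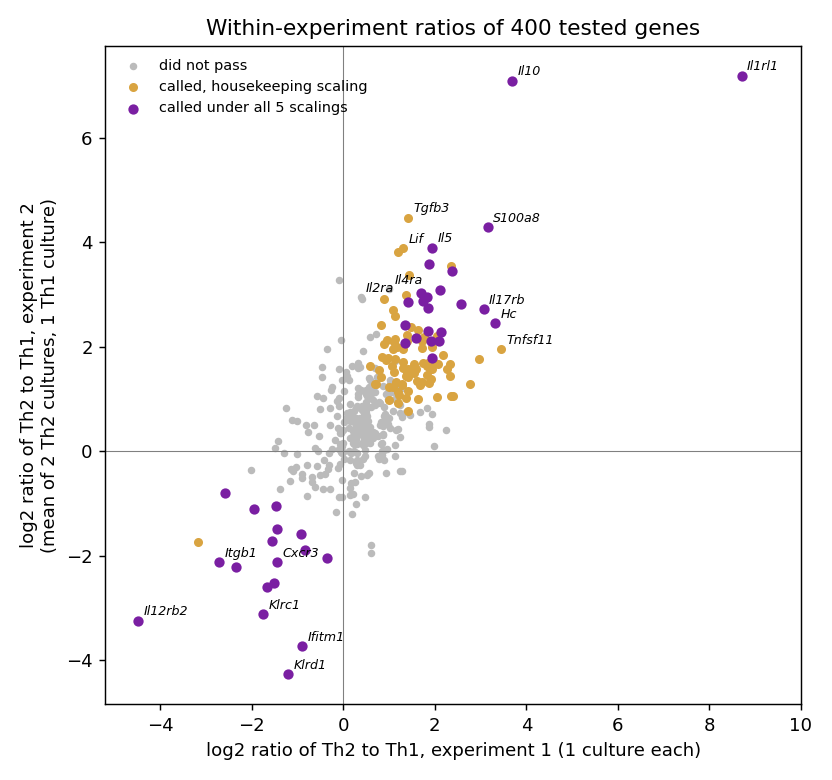
Log2 ratio of Th2 to Th1 scaled counts (with 1 added) of 400 tested genes in experiment 1 (x axis) and experiment 2 (y axis, mean of both Th2 cultures). All genes called under every scaling, in purple, lie in the upper right or lower left part, and Il1rl1 (8.70 and 7.18) and Il10 (3.68 and 7.09) are the points furthest from the origin over both axes together.

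The single Th0 culture of experiment 2, grown without the skewing cytokines, lay between the Th2 and Th1 means for 21 of the 23 genes higher and 14 of the 17 genes lower in Th2 cultures, and was nearer the Th1 mean for 16 and 9 of them. Il1rl1 had 59.9 scaled counts there, Il10 152, Il12rb2 173 and Tbx21 80.3. With 1 Th0 culture there was no spread to test against.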

How the data were processed

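Digital counts of NanoString probes were taken as the authors deposited them, as whole-number counts per probe with no scaling or background subtraction stated. The table held 547 endogenous genes, 14 housekeeping genes, 6 positive and 8 negative controls, and every sample column was matched to a label by its name. The detection limit of a sample was the mean plus 2 SDs of its negative controls, and a gene was tested if at least 2 of the 5 cultures lay above it, which left 400 genes. Counts were tested with edgeR 4.0.16 in R 4.3.3 (glmQLFit and glmQLFTest, Benjamini-Hochberg over the 400 genes, threshold 0.05), with the geometric mean of 7 housekeeping genes as the offset. These were above the limit in all 12 samples of the study. The other 4 scalings were the summed positive controls, TMM factors, DESeq2 1.42.0 size factors and total endogenous counts. DESeq2's Wald test, limma 3.58.1, other filters, each culture left out and the methods' t-test were alternatives. Fits with 1 Th1 culture assume that it varies as the Th2 cultures do.

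Log2 ratios within an experiment used scaled counts plus 1. Where a group lay at or below its limit, a fold is given as a lower bound against that limit. Such a gene passed the filter through the other group alone, so its call is no evidence apart from the bound. Probe counts differ in efficiency between genes, so that no gene's level was set against another's. Endogenous totals were 417917 to 481131 counts per culture, and for the lowest genes the negative controls set the precision. Scripts were tested on simulated data.

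Same-numbered samples share an experiment by their labels, and their deviations from the group means correlated at 0.177 in experiment 1 and at 0.121 and 0.119 in experiment 2, so experiment was fitted as a block in an alternative. Promoters came from RefSeq (GRCm38.p6), which matched 537 of the 547 genes by accession and held a promoter for 415 of them. The cultures and gene lists were chosen with earlier results of these data known. Genes were named if they were the 4 defining genes, were called under every scaling, were among the 4 most changed of a list or had a call that moved with scaling, or were among the 10 most changed in either direction. Cd4, Csf2, Gzmb, Cd3e, Cd247, Cxcr1, Cxcr2, Klrc2, Klra8, Ptpn2, Ptpn6 and the untested genes named fell outside this rule or were named after their values were seen. Some genes are not reported here.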

Additional observations from a re-analysis of the deposited data

Results flagged for a closer look

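Csf2 and Il2rb went opposite ways in the experiments. For Csf2, Th2 over Th1 cultures was 0.27 on the log2 scale in experiment 1 and -0.58 in experiment 2. For Il2rb, which encodes the signaling chain of the IL-2 and IL-15 receptors, it was -1.42 in experiment 1 and 0.19 in experiment 2. Neither gene passed with the housekeeping scaling, and the difference between experiments was not tested, since experiment 1 held 1 culture of each kind.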

How the results depend on the processing

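The 109 genes higher with the housekeeping genes became 34 with TMM factors, 32 with DESeq2's size factors, 23 with total counts and 65 where a gene needed 50 counts throughout a group, and 48 to 116 with 1 culture left out. The 18 genes lower became 31, 32 and 53 with the 3 scalings by endogenous counts and 10 to 15 with 1 culture left out. The methods' t-test gave 84 genes higher and 20 lower unadjusted and 0 of either after Benjamini-Hochberg. The sets called under every scaling, 23 higher and 17 lower, came to 0 to 21 higher and 1 to 14 lower with 1 culture left out. With experiment as a replicate block 159 genes were higher and 20 lower, and the calls of Il4ra, Cd3d, Cd3e and Cd226 changed among the genes named. DESeq2's Wald test gave 124 and 18 and limma 118 and 18. Single genes changed sign only where they had no call: Cd4 was at -0.23 with TMM factors, -0.25 with DESeq2's size factors and -0.47 with total counts, Cd247 at -0.24, -0.27 and -0.48 with the same scalings, Cd3e at -0.031 with total counts, Gzmb at -0.0069 with DESeq2's size factors and -0.21 with total counts, and Il2rb at 0.16 without the Th1 culture of experiment 1 and at -1.36 without that of experiment 2. The cause of these shifts was not tested. Where every culture of a group lay at or below the detection limit, the depth allows a lower bound of the fold.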
